A study of Mus musculus with 19 samples.

Results

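The solute carrier genes are the genes whose symbol in the deposited lists of translated open reading frames (ORFs) begins with Slc followed by a number. Of 7384 genes with a listed ORF, 120 met that rule. They were compared between lung adenocarcinoma (LUAD) organoids and alveolar type 2 (AT2) organoids from mice of strain C57BL/6. Ribosome footprints were taken in 4 LUAD and 3 AT2 libraries, RNA in 4 LUAD and 3 AT2 libraries, and ORF lists in 3 LUAD and 2 AT2 libraries. All organoids grew in lung organoid medium, were plated for 48 hours, and were given cycloheximide, a blocker of translation elongation, at 100 µM for 5 minutes before harvest. The LUAD ORF libraries are titled KP and are LUAD by their source label. The design text names 2 separate AT2 cultures and 3 separately derived tumour organoids, which are the numbers of the ORF libraries. No label says whether the footprint and RNA libraries come from separate cultures, so p-values measure the spread between these libraries, which may be technical.

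Solute carriers are membrane proteins that move small molecules by facilitated diffusion or by coupling to ion gradients, without hydrolysing ATP. Families are numbered, and many, though not all, share a kind of substrate. Slc7 and Slc38 mostly carry amino acids, Slc2 sugars, and Slc30 and Slc39 zinc and other metals. Slc25 mostly connects the mitochondrial matrix with the cytosol. AT2 cells make surfactant and take up its building blocks from the blood and the airspace, with Slc34a2, a sodium phosphate carrier, among their best known markers. Tumour cells are known for high uptake of glucose and amino acids and for lactate exchange across the plasma membrane.

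Levels are given in CPM, that is counts relative to a library size scaled by the TMM method, and a gene was called where the edgeR quasi-likelihood test gave a Benjamini-Hochberg adjusted p under 0.05 over all genes tested. Library totals ran from 4803129 to 14249573 footprint counts in LUAD and from 3030290 to 3834358 in AT2, and from 27181932 to 33203742 RNA counts in LUAD and from 4122819 to 10233520 in AT2. Within each tissue the libraries fell into 2 sets that no label names. For footprints the first set holds LUAD replicates 1 and 2 and AT2 replicate 1, and for RNA it holds LUAD replicates 1 and 2 and AT2 replicates 1 and 2. All 31 footprint calls described here had the same sign in both sets. So did 49 of the 50 RNA calls in the second set, among them the 44 of the named genes. AT2 markers (7 of 12 measured) summed to 289 to 401 CPM in LUAD footprints and 1570 to 2950 CPM in AT2 footprints, with Sftpb at 0 in LUAD footprints. In footprints Etv5 went against that list's sum (14 in LUAD and 8.21 in AT2, in counts per 1e6 counts of the group's libraries), and Slc34a2 was hardly measured in either tissue because its paired transcript retains an intron. AT1 markers (5 of 8 measured) summed to 179 to 202 CPM in LUAD footprints and 932 to 2890 CPM in AT2 footprints, a sum carried by Aqp5 and Emp2, with Ager at 0 in LUAD RNA. The AT1 marker Cav1 was higher in LUAD (55.8 in LUAD and 8.5 in AT2 footprints, and 78.1 in LUAD and 19.1 in AT2 RNA, on the same per-group scale), as was Rtkn2 in footprints (17.1 in LUAD and 8.12 in AT2). The only measured fibroblast marker, Bgn, stood at 41.5 to 104 CPM in LUAD and 2.65 to 3.56 CPM in AT2 footprints. The 2 measured macrophage markers, Mrc1 and Cd14, summed to 77.6 to 101 CPM in LUAD and 8.68 to 8.89 CPM in AT2 footprints. Gut-type markers (3 of 6 measured) summed to 87.8 to 213 CPM in LUAD and 13.3 to 57.1 CPM in AT2 footprints, with Lgals4 at 0 in AT2. Their part in the results below was not tested. In bulk organoids fewer cells of a type and less RNA per cell cannot be told apart.

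Of the 120 solute carrier genes, 70 were in LUAD ORF lists alone, 11 in AT2 lists alone and 39 in both. A member may thus have entered only through the tissue where it is higher. In footprints 115 could be tested, and in RNA 119. In footprints 14 were higher and 17 lower in LUAD (12.2% and 14.8%), against 9.47% higher and 11.8% lower of all genes tested (21.3% in either direction). In RNA 19 were higher and 31 lower in LUAD (16% and 26.1%), against 19% higher and 18% lower of all genes (37% in either direction). The median log2 fold change of the carriers was -0.13 in footprints and -0.26 in RNA, beside -0.02 and 0.04 over all genes. Across substrate classes, metal carriers had 5 footprint calls, all lower, and monocarboxylate carriers 2, both higher. The ion carriers had 4 higher and 2 lower, and the amino acid carriers 2 higher and 2 lower. Among the 115 genes tested in both assays, 90 had the same sign, and all 22 genes called in both were called in the same direction. Scaling on all transcripts raised the median over all genes to 0.146 in footprints and 0.201 in RNA, and then 20 carriers were higher and 13 lower in footprints, and 25 higher and 24 lower in RNA.

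**Figure D1:**
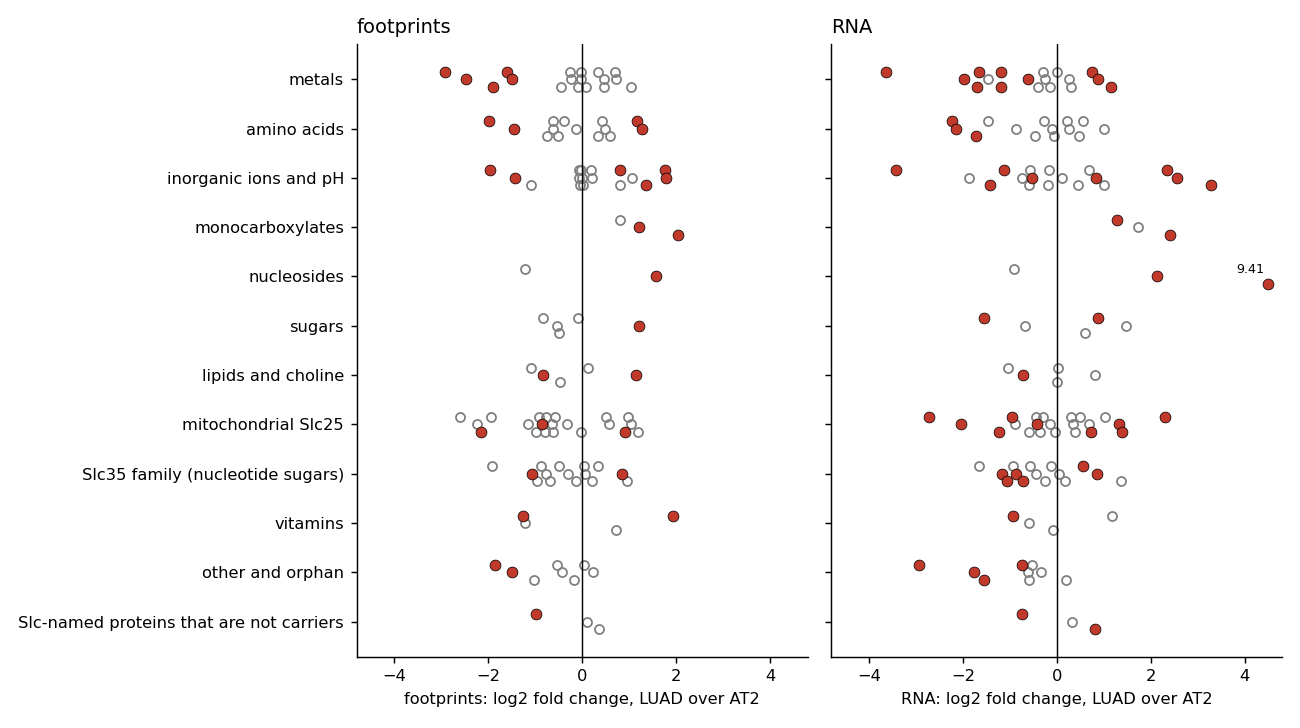
Log2 fold change of LUAD over AT2 for each tested solute carrier gene, by substrate class, in footprints (left) and RNA (right); filled red points passed the edgeR test and open points did not. Points beyond 4.5 are drawn at 4.5 with their value (Slc29a2, 9.41). In the metals row, the 5 called footprint points all lie left of 0.

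Carriers of metals held the most genes lower in LUAD footprints of any class by count, though not the lowest class median. The median log2 fold change of the metal class was -0.06 in footprints and -0.36 in RNA, beside -0.13 and -0.26 over all solute carriers. Of 18 measured, 5 fell in LUAD footprints and none rose, and in RNA 7 fell and 3 rose. Of these 5, Slc48a1 and Slc39a11 were in AT2 ORF lists alone, so they entered only through the tissue where they were higher. Slc31a1 was in LUAD lists alone, and Slc39a8 and Slc39a7 were in both. The deepest fall was that of Slc39a8, a zinc and manganese importer of the plasma membrane. Its footprints stood at 14.5, 23.1, 19.2 and 19.7 CPM in LUAD, against 225, 105 and 109 CPM in AT2. Its RNA stood at 25.4, 29.4, 26.7 and 27.2 CPM in LUAD, against 418, 414 and 186 CPM in AT2. No LUAD library came near the lowest AT2 library in either assay. The log2 fold change was -2.92 ± 0.33 (SE) in footprints (edgeR adjusted p = 0.000967) and -3.64 ± 0.29 in RNA (edgeR adjusted p = 0.00012). Within the 2 library sets it was -3.47 and -2.45 in footprints and -3.93 and -2.81 in RNA.

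Slc48a1, which moves haem out of endosomes and lysosomes, had footprints of 10.9, 12, 6.12 and 7.31 CPM in LUAD, against 57.8, 49.2 and 43.5 CPM in AT2. The log2 fold change was -2.47 ± 0.32 in footprints (edgeR adjusted p = 0.00184) and -1.97 ± 0.21 in RNA (edgeR adjusted p = 0.00041). Of its footprint counts, 51.0% lay on the coding transcript and the rest on a transcript not annotated as coding. Slc31a1, the high-affinity copper importer, varied little between libraries of a tissue. It had 26.9, 26.5, 32.6 and 28.5 CPM in LUAD footprints, against 89.8, 85.2 and 85.5 CPM in AT2 footprints. In RNA it had 28.3, 42.6, 39.4 and 39.3 CPM in LUAD, against 100, 121 and 133 CPM in AT2. Slc31a1 fell by 1.60 ± 0.19 on the log2 scale in footprints (edgeR adjusted p = 0.00107) and by 1.66 ± 0.20 in RNA (edgeR adjusted p = 0.000652).

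Slc39a7 releases zinc from the endoplasmic reticulum into the cytosol. It was the metal carrier with the most footprint counts over all libraries, at 145, 142, 140 and 138 CPM in LUAD, against 470, 369 and 359 CPM in AT2. Its log2 fold change was -1.50 ± 0.17 in footprints (edgeR adjusted p = 0.000892) and -1.20 ± 0.16 in RNA (edgeR adjusted p = 0.000979). Slc39a11, another zinc carrier of the same family, had footprints of 5.83 to 8.16 CPM in LUAD and 18.9 to 37.4 CPM in AT2, a log2 fold change of -1.90 ± 0.36 (edgeR adjusted p = 0.0087), and its RNA fell by 1.71 ± 0.28 (edgeR adjusted p = 0.00244). With the replicate number as a block the footprint call of Slc39a11 was lost (edgeR adjusted p = 0.0721). Slc31a1 and Slc39a7, and below Slc39a9, Slc39a6 and Slc25a1, were named after their values were seen.

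Zinc carriers of the secretory pathway gave RNA calls in both directions. RNA of Slc39a9, a zinc carrier of the Golgi and plasma membrane, stood at 13.2 to 14.1 CPM in LUAD and 26.8 to 35.4 CPM in AT2 (log2 fold change -1.19 ± 0.21, edgeR adjusted p = 0.00363), while its footprints overlapped between the tissues. RNA of Slc39a6 fell by 0.62 ± 0.19 on the log2 scale (edgeR adjusted p = 0.0363, 0.0729 with the replicate number as a block, and up to 0.118 without a library). Slc39a4, a zinc importer best known from the gut, had RNA of 419, 454, 439 and 435 CPM in LUAD, against 201, 206 and 306 CPM in AT2. That is a log2 fold change of 0.88 ± 0.18 (edgeR adjusted p = 0.00705), and Slc39a4 was the most abundant metal carrier in LUAD RNA, where it held 33.1% to 37.4% of the class's counts, against 10.1% to 17.9% in AT2. Its footprints stood at 118 to 143 CPM in LUAD and 86.3 to 138 CPM in AT2, which overlap (log2 fold change 0.08 ± 0.21, edgeR adjusted p = 0.813). The difference between the assays was itself not called for Slc39a4 (footprints per RNA -0.72 ± 0.28 on the log2 scale, edgeR adjusted p = 0.252). Slc30a4 and Slc30a7, which load zinc into vesicles and the Golgi, had log2 RNA fold changes of 1.14 ± 0.34 and 0.74 ± 0.22 (edgeR adjusted p = 0.0305 and 0.0296). With the replicate number as a block these 2 RNA calls were lost, and leaving out any one of 6 libraries (Slc30a4) or 4 (Slc30a7) ended them too (edgeR adjusted p with the block = 0.0727 and 0.0908, highest without a library 0.0876 and 0.0809).

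**Figure D2:**
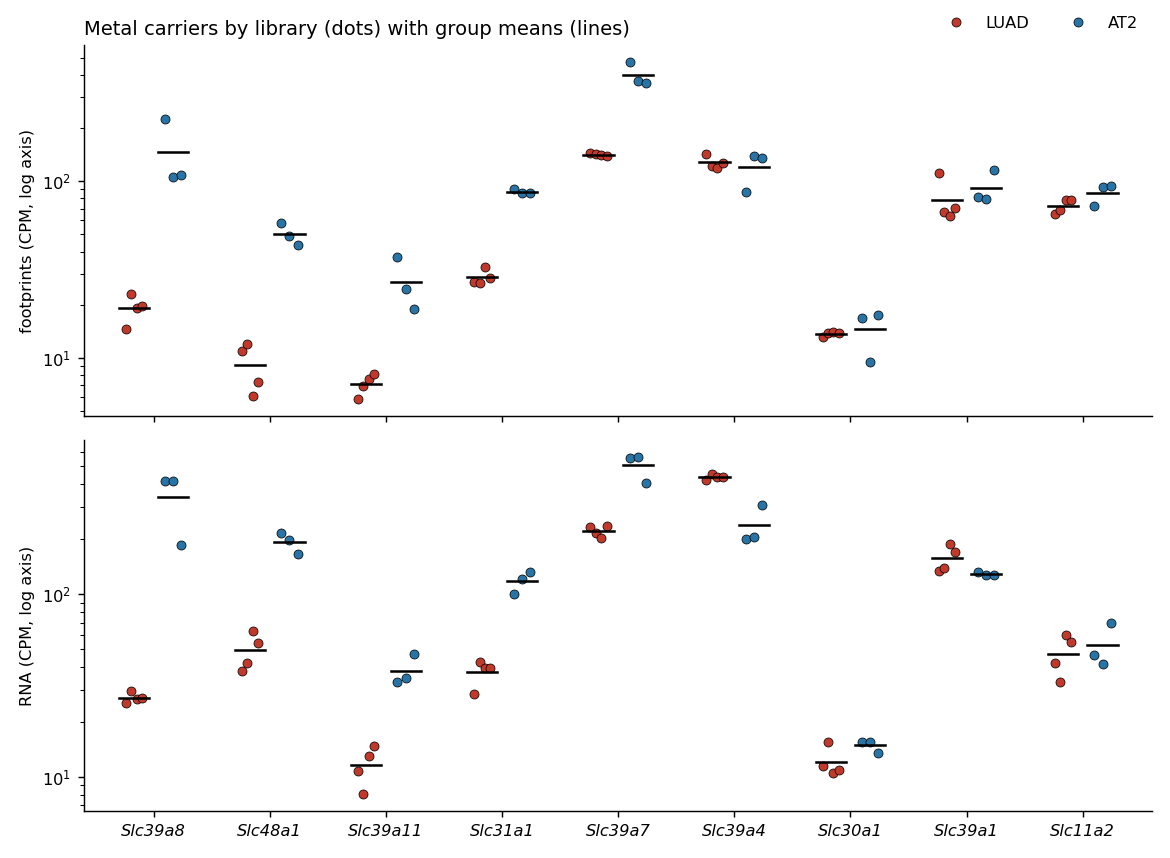
CPM of 9 metal carriers in each footprint library (top) and RNA library (bottom), on log axes, with LUAD in red left of AT2 in blue; dots are libraries and lines are group means. The 5 genes on the left do not overlap between the tissues in either assay, and Slc39a4 separates in RNA alone.

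Other metal carriers gave no call. Slc30a1, the zinc exporter of the plasma membrane, had footprints of 13.2 to 14 CPM in LUAD and 9.51 to 17.4 CPM in AT2. Its log2 fold change was -0.08 ± 0.35 in footprints and -0.30 ± 0.29 in RNA (edgeR adjusted p = 0.896 and 0.445). Slc39a1, a zinc importer, and Slc11a2, the ferrous iron importer, had log2 footprint fold changes of -0.24 ± 0.26 and -0.25 ± 0.18 (edgeR adjusted p = 0.555 and 0.39). Slc39a14, which takes up zinc, manganese and iron, had footprints of 33.5 to 37.8 CPM in LUAD and 20.7 to 23.1 CPM in AT2, which do not overlap but missed the threshold (log2 fold change 0.70 ± 0.22, edgeR adjusted p = 0.0561). Slc39a10, a zinc importer, had 11.6 to 19.1 CPM in LUAD and 7.18 to 14.2 CPM in AT2 footprints, and 2.88 to 4.17 CPM in LUAD and 5.82 to 13.9 CPM in AT2 RNA.

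Zinc-responsive genes such as Slc30a1 are known to be controlled by metal response elements. The pattern searched here, TGCNCNC, is looser than their usual core, so a match need not be such a core. Promoter windows from RefSeq (build GRCm38.p6, 250 bases before to 50 after the start of a transcript) matched 88 of the 120 members, among them 13 metal carriers. They are shown for the metal carrier that fell the most and for the zinc exporter that was not called. Matches to the pattern on either strand are in capitals, overlapping matches joined. The first is chr3:135825407-135825706 on the plus strand, the second of 2 windows of Slc39a8 (the other holds no match), and the second is chr1:191906531-191906830 on the plus strand.
Slc39a8: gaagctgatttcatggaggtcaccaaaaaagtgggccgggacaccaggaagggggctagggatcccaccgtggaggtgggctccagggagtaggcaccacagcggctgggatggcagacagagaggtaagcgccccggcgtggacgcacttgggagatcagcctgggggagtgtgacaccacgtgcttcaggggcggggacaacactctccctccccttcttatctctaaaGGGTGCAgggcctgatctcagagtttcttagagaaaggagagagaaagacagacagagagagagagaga
Slc30a1: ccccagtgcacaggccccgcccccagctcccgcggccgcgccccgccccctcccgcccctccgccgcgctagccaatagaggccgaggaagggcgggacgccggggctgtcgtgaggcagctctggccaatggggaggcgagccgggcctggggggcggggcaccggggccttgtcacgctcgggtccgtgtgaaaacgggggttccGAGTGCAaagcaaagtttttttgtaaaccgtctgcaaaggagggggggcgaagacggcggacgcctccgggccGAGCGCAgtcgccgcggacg
The Slc39a8 window holds 1 match and the Slc30a1 window 2. A match is common: 51.0% of 32851 promoter windows of all genes hold at least 1, and 61.3% of the 124 windows of solute carrier members. Among metal carriers with a window, 3 of 4 that were lower in footprints held a match, and so did 6 of 9 that were not called.

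Amino acid carriers differed in direction within the same family. Of 14 measured, 2 rose and 2 fell in LUAD footprints, and 0 rose and 3 fell in RNA. Slc38a2, the sodium-coupled importer of small neutral amino acids that cells induce when amino acids run short, had footprints of 1190, 1410, 1290 and 1280 CPM in LUAD, against 509, 554 and 529 CPM in AT2. Its log2 fold change in footprints was 1.28 ± 0.17 (edgeR adjusted p = 0.00203), and 1.4 and 1.24 within the 2 library sets. In RNA Slc38a2 stood at 408, 397, 281 and 278 CPM in LUAD, against 264, 260 and 219 CPM in AT2, a log2 fold change of 0.46 ± 0.19 (edgeR adjusted p = 0.0954, and 0.0183 with the replicate number as a block). Per length, Slc38a2 was the third most abundant solute carrier gene in LUAD footprints, at 218 ± 30.2 TPM (a level per transcript length; SD, n = 4), and the ninth in AT2 footprints, at 62.9 ± 31.8 TPM (SD, n = 3). It made up 68.7% to 75.2% of the amino acid class's footprint counts in LUAD and 41.3% to 49.2% in AT2.

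Its close relative Slc38a1, which carries glutamine and other neutral amino acids, went the other way. Slc38a1 footprints stood at 61.1, 54.7, 33.2 and 41.4 CPM in LUAD, against 119, 140 and 127 CPM in AT2. RNA of Slc38a1 stood at 10.8 to 16.1 CPM in LUAD and 50.4 to 68.3 CPM in AT2. The log2 fold change was -1.44 ± 0.24 in footprints (edgeR adjusted p = 0.00522) and -2.16 ± 0.22 in RNA (edgeR adjusted p = 0.000321). Slc7a1, the importer of arginine and lysine, had footprints of 102, 86.0, 91.5 and 94.4 CPM in LUAD, against 52.5, 38.0 and 35.2 CPM in AT2 (log2 fold change 1.17 ± 0.21, edgeR adjusted p = 0.00691). Its RNA overlapped between the tissues (log2 fold change 0.55 ± 0.26, edgeR adjusted p = 0.132), and footprints per RNA of Slc7a1 were not called (0.70 ± 0.32 on the log2 scale, edgeR adjusted p = 0.363). Slc38a10, an orphan member measured on transcripts not annotated as coding alone, had footprints of 6.84 to 14 CPM in LUAD and 22.7 to 46.9 CPM in AT2 (log2 fold change -1.99 ± 0.38, edgeR adjusted p = 0.00889). Slc38a10 was in AT2 ORF lists alone. Its RNA call (edgeR adjusted p = 0.0357) was lost with the replicate number as a block (edgeR adjusted p = 0.063) and without any one of 5 libraries (highest 0.137).

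The carriers most often tied to tumour amino acid uptake gave no call in the edgeR test over all libraries without an added term. The heavy chain Slc3a2 had footprints of 134 to 223 CPM in LUAD and 158 to 217 CPM in AT2, and its leucine-importing partner Slc7a5 had 37.3 to 98.3 CPM in LUAD and 37.4 to 63.9 CPM in AT2. Slc1a5, a glutamine exchanger, had 44.6 to 59.9 CPM in LUAD and 31.8 to 124 CPM in AT2. Their log2 footprint fold changes were -0.13 ± 0.24, 0.42 ± 0.43 and -0.39 ± 0.44 (edgeR adjusted p = 0.743, 0.535 and 0.577). In RNA, Slc3a2 and Slc1a5 had opposite signs in the 2 library sets, at -0.44 and 0.43 for Slc3a2 and at -0.88 and 0.74 for Slc1a5. Slc7a7, which with Slc3a2 exports cationic amino acids, had RNA of 15.6 to 28.6 CPM in LUAD and 41.9 to 93.7 CPM in AT2 (log2 fold change -1.73 ± 0.33, edgeR adjusted p = 0.00501). Slc7a11, the cystine importer, is in no ORF list and was not analysed here.

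**Figure D3:**
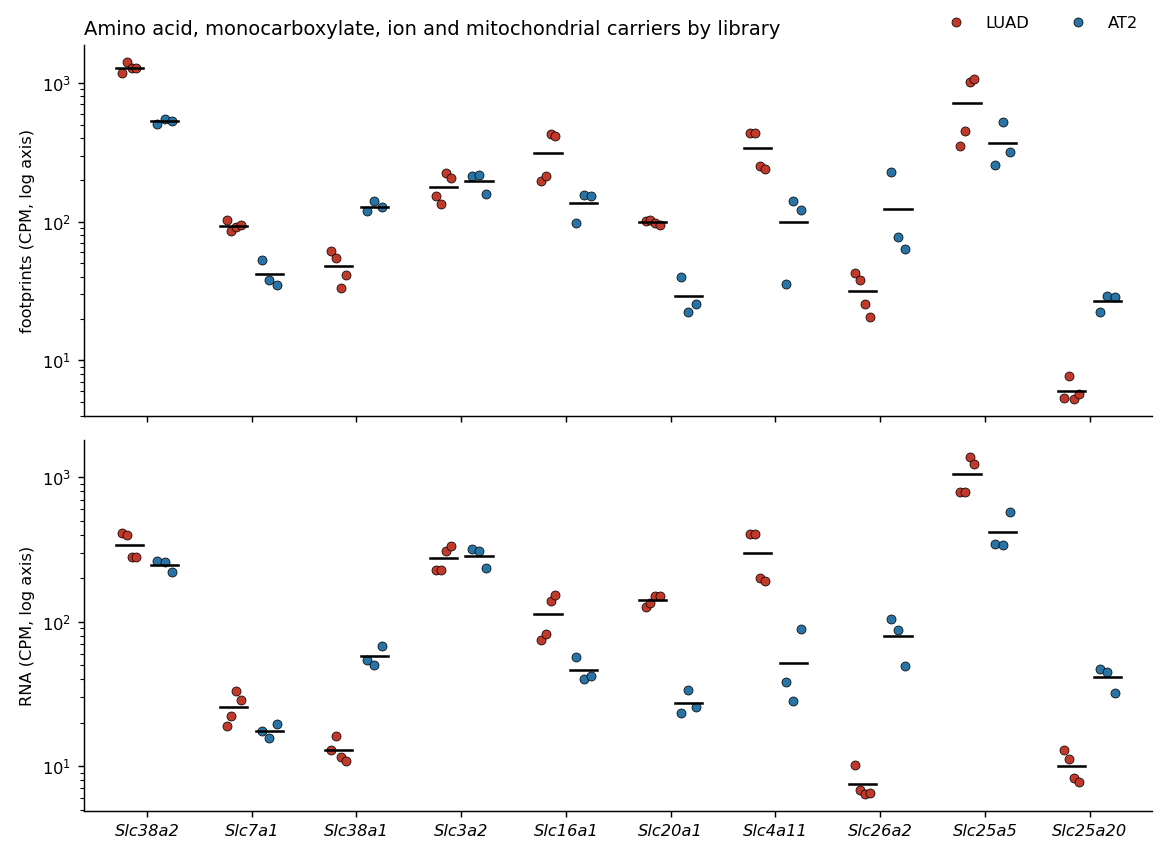
CPM of 10 carriers of amino acids, monocarboxylates, ions and mitochondrial substrates in each footprint library (top) and RNA library (bottom), on log axes, with LUAD in red left of AT2 in blue; dots are libraries and lines are group means. Slc38a2 and Slc38a1 separate in opposite directions in footprints, and Slc3a2 overlaps in both assays.

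Ion and pH carriers gave calls of both signs. Slc20a1, the widely expressed sodium phosphate importer, had footprints of 101, 103, 98.6 and 94.2 CPM in LUAD, against 40.0, 22.3 and 25.7 CPM in AT2. Its RNA stood at 127 to 151 CPM in LUAD and 23.4 to 33.4 CPM in AT2. Log2 fold changes of Slc20a1 were 1.78 ± 0.24 in footprints and 2.35 ± 0.19 in RNA (edgeR adjusted p = 0.0023 and 0.000128). The phosphate carrier known from AT2 cells, Slc34a2, could not be tested, because the transcript paired with it retains an intron: it had 0 counts in LUAD and 4 in AT2 footprints, and 0 in RNA of both tissues.

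Slc4a11, a proton-conducting member of the bicarbonate carrier family, had footprints of 436, 439, 251 and 238 CPM in LUAD, against 35.6, 141 and 121 CPM in AT2. Its log2 fold change was 1.76 ± 0.47 in footprints and 2.56 ± 0.49 in RNA (edgeR adjusted p = 0.0336 and 0.00518). The size of the Slc4a11 difference depended on the library set, at 3.66 in the first and 0.90 in the second for footprints, and 3.61 and 1.10 for RNA. The footprint call of Slc4a11 was lost without LUAD replicate 1, 2 or 3 or AT2 replicate 3 (highest edgeR adjusted p = 0.0786).

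Slc9a2, a sodium and proton exchanger of epithelial plasma membranes, had RNA of 40.5, 35.2, 21.4 and 22.6 CPM in LUAD, against 1.33, 4.56 and 3.49 CPM in AT2, a log2 fold change of 3.27 ± 0.49 (edgeR adjusted p = 0.00176). In footprints Slc9a2 had 20.2 to 34.5 CPM in LUAD and 8 to 15.1 CPM in AT2 (log2 fold change 1.36 ± 0.37, edgeR adjusted p = 0.035, lost without any one of 5 of the 7 libraries, highest edgeR adjusted p = 0.102).

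Slc12a2, the sodium, potassium and chloride cotransporter, had footprints of 559 to 685 CPM in LUAD and 330 to 405 CPM in AT2 (log2 fold change 0.81 ± 0.18, edgeR adjusted p = 0.0145, and 0.0546 without AT2 replicate 2). The footprint call of Slc12a2 was also lost with the replicate number as a block (edgeR adjusted p = 0.084). In RNA Slc12a2 stood at 101 to 106 CPM in LUAD and 59.0 to 84.3 CPM in AT2 (log2 fold change 0.44 ± 0.17, edgeR adjusted p = 0.075). Slc26a2, the sulfate carrier that supplies sulfation, had footprints of 42.4, 38.2, 25.3 and 20.6 CPM in LUAD, against 229, 78.1 and 63.9 CPM in AT2. RNA of Slc26a2 stood at 6.4 to 10.2 CPM in LUAD and 48.9 to 104 CPM in AT2, and its log2 fold change was -1.96 ± 0.48 in footprints and -3.42 ± 0.31 in RNA (edgeR adjusted p = 0.0239 and 0.000195). The footprint call of Slc26a2 was lost without LUAD replicate 2, 3 or 4 (highest edgeR adjusted p = 0.0694). Slc35b2, which carries the activated sulfate donor into the Golgi, also fell in both assays, with log2 fold changes of -1.07 ± 0.29 in footprints and -0.72 ± 0.14 in RNA (edgeR adjusted p = 0.0358 and 0.00647). Its footprint call was lost without any one of 5 of the 7 libraries (highest edgeR adjusted p = 0.105).

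Monocarboxylate carriers, all 3 of them in LUAD ORF lists alone, were higher in LUAD where they were called. Slc16a1, the lactate and pyruvate carrier, had footprints of 195, 215, 426 and 414 CPM in LUAD, against 97.8, 157 and 152 CPM in AT2. Its log2 fold change was 1.20 ± 0.35 in footprints and 1.28 ± 0.31 in RNA (edgeR adjusted p = 0.0449 and 0.0133). The footprint call of Slc16a1 was lost without any one of 5 of the 7 libraries (highest edgeR adjusted p = 0.105) and the RNA call without AT2 replicate 2 (edgeR adjusted p = 0.0591). The chaperone that brings Slc16a1 to the membrane, Bsg, had log2 fold changes of -1.29 ± 0.19 in footprints and -1.12 ± 0.17 in RNA (edgeR adjusted p = 0.00314 and 0.00158). Slc16a3, the other lactate carrier, is in no ORF list and was not analysed here.

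Of 3 nucleoside carriers, all in LUAD ORF lists alone, 1 of 2 tested rose in footprints and 2 of 3 in RNA. Slc29a1, the equilibrative nucleoside carrier of the plasma membrane, had RNA of 35.3, 41.1, 74.2 and 81.1 CPM in LUAD, against 10.2, 10.2 and 20.2 CPM in AT2 (log2 fold change 2.14 ± 0.41, edgeR adjusted p = 0.00555). In footprints it had 17.4 to 33.9 CPM in LUAD and 4.45 to 13.6 CPM in AT2 (log2 fold change 1.57 ± 0.45, edgeR adjusted p = 0.0402, lost without any one of 6 of the 7 libraries, highest edgeR adjusted p = 0.111). Slc29a2, its relative, had 0 counts in every AT2 library and RNA of 8.38, 5.54, 1.83 and 7.68 CPM in LUAD. Set against a floor of 3 counts over the AT2 group, Slc29a2 was at least 33.0-fold higher in LUAD RNA and at least 4.08-fold higher in LUAD footprints, per library total. Slc29a3, the nucleoside carrier of lysosomes, had log2 fold changes of -1.22 ± 0.82 in footprints and -0.91 ± 0.67 in RNA (edgeR adjusted p = 0.339 and 0.315).

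Of 5 sugar carriers, 1 rose and 0 fell in footprints, and 1 rose and 1 fell in RNA. Of 5 lipid and choline carriers, 1 rose and 1 fell in footprints, and 0 rose and 1 fell in RNA. Slc2a1, the main glucose importer of proliferating cells, had footprints of 109 to 189 CPM in LUAD and 64.0 to 213 CPM in AT2, and RNA of 98 to 125 CPM in LUAD and 55.7 to 112 CPM in AT2. The groups overlapped in both assays, with log2 fold changes of -0.08 ± 0.40 and 0.60 ± 0.27 (edgeR adjusted p = 0.917 and 0.113). Within the library sets the log2 fold change of Slc2a1 footprints was 0.98 in the first, whose AT2 arm is 1 library, and -0.19 in the second. Slc5a3, the sodium-coupled importer of myo-inositol, had footprints of 67.0, 71.1, 51.6 and 51.3 CPM in LUAD, against 21.3, 33.9 and 22.7 CPM in AT2 (log2 fold change 1.20 ± 0.26, edgeR adjusted p = 0.0151), while its RNA stayed at 0 to 4.01 CPM in all libraries. RNA of Slc50a1, a sugar carrier, stood at 41.9 to 59.0 CPM in LUAD and 26.2 to 32.2 CPM in AT2 (log2 fold change 0.87 ± 0.20, edgeR adjusted p = 0.0117), and its footprints overlapped (log2 fold change -0.54 ± 0.40, edgeR adjusted p = 0.379).

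Slc27a4, which takes up long-chain fatty acids, had footprints of 37.5 to 44.1 CPM in LUAD and 69.2 to 79.8 CPM in AT2. Its log2 fold change was -0.83 ± 0.18 in footprints and -0.73 ± 0.20 in RNA (edgeR adjusted p = 0.0147 and 0.0222). Leaving out LUAD replicate 2, 3 or 4 ended the footprint call of Slc27a4 (highest edgeR adjusted p = 0.057), and leaving out LUAD replicate 3 or 4 or AT2 replicate 1 or 2 ended its RNA call (highest edgeR adjusted p = 0.0894). Slc44a4, a member of the choline carrier-like family, had footprints of 64.9, 67.2, 62.3 and 63.4 CPM in LUAD, against 24.0, 29.8 and 32.9 CPM in AT2 (log2 fold change 1.15 ± 0.20, edgeR adjusted p = 0.00668). Its RNA stood at 47.2 to 58.6 CPM in LUAD and 10.5 to 44.2 CPM in AT2 and missed the threshold (edgeR adjusted p = 0.14).

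The mitochondrial Slc25 carriers held the highest mean share of counts of the classes in both assays, and their sum overlapped between the tissues in footprints. In LUAD footprint replicates 1 and 2 the ion and pH class held more. They took 0.196% ± 0.0402 of all footprint counts in LUAD and 0.161% ± 0.0692 in AT2 (SD, n = 4 and 3), and 0.317% ± 0.0262 of RNA counts in LUAD and 0.269% ± 0.00872 in AT2. Ion and pH carriers took 0.154% ± 0.0258 of footprint counts in LUAD and 0.0814% ± 0.014 in AT2, which did not overlap. Amino acid carriers took 0.145% ± 0.00694 of footprint counts in LUAD and 0.0663% ± 0.0179 in AT2, and 0.0606% ± 0.00428 of RNA counts in LUAD and 0.0620% ± 0.0101 in AT2. Most of the footprint difference of the amino acid class was Slc38a2: without it the class took 0.0383% to 0.0444% of footprint counts in LUAD and 0.0269% to 0.0397% in AT2. Metal carriers took 0.0580% ± 0.00407 of footprint counts in LUAD and 0.0699% ± 0.0173 in AT2, and 0.0865% ± 0.00235 of RNA counts in LUAD and 0.130% ± 0.0204 in AT2. AT2 replicate 1 held the lowest share of footprint counts in all solute carriers, at 0.345%, against 0.563% and 0.612% in the other AT2 libraries and 0.703% to 0.735% in LUAD. These shares were not tested.

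**Figure D4:**
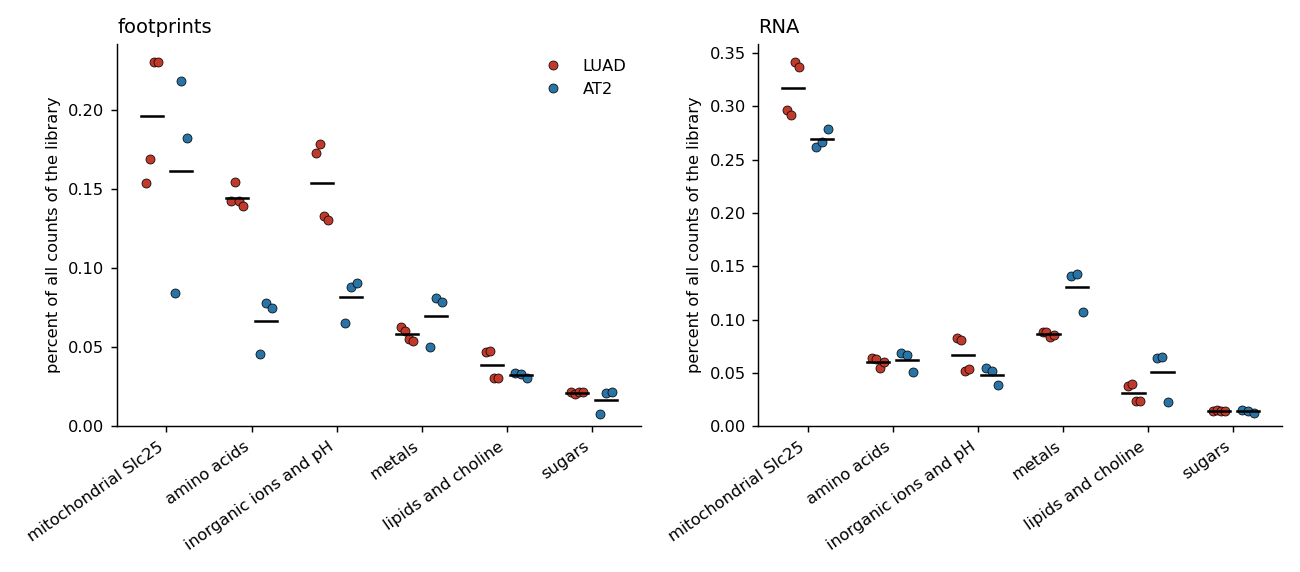
Percent of all counts of a library that fall on solute carriers of 6 substrate classes, in footprints (left) and RNA (right), with LUAD in red left of AT2 in blue; dots are libraries and lines are group means. In footprints the amino acid class lies between 0.139% and 0.155% in LUAD and between 0.0457% and 0.0781% in AT2, of which Slc38a2 makes up 68.7% to 75.2% in LUAD and 41.3% to 49.2% in AT2.

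Of 22 Slc25 members, 21 could be tested in footprints, where 1 rose and 2 fell, and 22 in RNA, where 4 rose and 5 fell. Slc25a20, the carnitine and acylcarnitine exchanger that brings fatty acids to oxidation, was called in both assays and was in AT2 ORF lists alone. It had footprints of 5.33, 7.69, 5.23 and 5.72 CPM in LUAD, against 22.2, 28.9 and 28.7 CPM in AT2, and RNA of 7.73 to 13 CPM in LUAD and 32.2 to 47.0 CPM in AT2. Slc25a20 fell by 2.15 ± 0.34 in footprints and by 2.04 ± 0.27 in RNA on the log2 scale (edgeR adjusted p = 0.00395 and 0.00104). Slc25a24, an ATP-magnesium and phosphate carrier, had 187 to 257 CPM in LUAD and 75.6 to 150 CPM in AT2 footprints (log2 fold change 0.91 ± 0.27, edgeR adjusted p = 0.0446), and Slc25a39, the glutathione importer, had 25.9 to 32.8 CPM in LUAD and 43.6 to 60.8 CPM in AT2 footprints (log2 fold change -0.86 ± 0.22, edgeR adjusted p = 0.0263). Each of these 2 footprint calls was lost without any one of 6 of the 7 libraries (highest edgeR adjusted p = 0.108 for Slc25a24 and 0.0818 for Slc25a39), and 34.3% of Slc25a39 footprint counts lay on coding transcripts. RNA of Slc25a39 missed the threshold without the block (edgeR adjusted p = 0.104) and passed it with the replicate number as a block (edgeR adjusted p = 0.0403).

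The ADP/ATP exchangers Slc25a4 and Slc25a5 and the phosphate carrier Slc25a3 were the 3 most abundant members per length in RNA of both tissues. RNA of Slc25a5 stood at 785, 786, 1380 and 1240 CPM in LUAD, against 344, 338 and 577 CPM in AT2, a log2 fold change of 1.32 ± 0.30 (edgeR adjusted p = 0.01). Slc25a4 did not rise with it, with RNA of 624 to 891 CPM in LUAD and 880 to 1000 CPM in AT2 (log2 fold change -0.30 ± 0.17, edgeR adjusted p = 0.197, and 0.0407 with the replicate number as a block). Slc25a3 had a log2 RNA fold change of 0.39 ± 0.17 (edgeR adjusted p = 0.104, and 0.0434 with the replicate number as a block). In footprints none of these 3 was called. Slc25a1, the citrate exporter that feeds lipid synthesis, had RNA of 321 to 378 CPM in LUAD and 190 to 229 CPM in AT2 (log2 fold change 0.72 ± 0.15, edgeR adjusted p = 0.00652).

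RNA of Slc25a37, an iron importer of mitochondria, stood at 97.6, 76.5, 55.7 and 51.1 CPM in LUAD, against 11.2, 6.63 and 26.8 CPM in AT2 (log2 fold change 2.30 ± 0.48, edgeR adjusted p = 0.00776). With coding transcripts alone the edgeR adjusted p of Slc25a37 was 0.259. Slc25a30 had a log2 RNA fold change of 1.38 ± 0.32 (edgeR adjusted p = 0.0124, and 0.0559 without AT2 replicate 2). Further falls in RNA were those of Slc25a23, another ATP-magnesium and phosphate carrier, at 11.1 to 22.7 CPM in LUAD and 61.7 to 146 CPM in AT2, and Slc25a51, the NAD importer, at 27.4 to 36.9 CPM in LUAD and 58.6 to 83.4 CPM in AT2. Their log2 fold changes were -2.73 ± 0.37 and -1.24 ± 0.20 (edgeR adjusted p = 0.00114 and 0.00229). Footprints of Slc25a23 stood at 2.37 to 8.38 CPM in LUAD, against 80.9, 0 and 3.40 CPM in AT2, so that the AT2 libraries did not agree.

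Of 15 members of the Slc35 family, which mostly carry nucleotide sugars into the Golgi and endoplasmic reticulum, 1 rose and 1 fell in footprints and 2 rose and 4 fell in RNA. Slc35f5, an orphan, had footprints of 80.5 to 124 CPM in LUAD and 48.0 to 62.0 CPM in AT2, with log2 fold changes of 0.85 ± 0.23 in footprints and 0.86 ± 0.27 in RNA (edgeR adjusted p = 0.0312 and 0.0358). Each of these calls was lost without any one of 5 of the 7 libraries (highest edgeR adjusted p = 0.0933 and 0.0803). RNA fell for Slc35a2, the UDP-galactose carrier, Slc35a5 and Slc35b1, which carries ATP into the endoplasmic reticulum (log2 fold changes -1.06 ± 0.27, -1.16 ± 0.28 and -0.88 ± 0.30, edgeR adjusted p = 0.0161, 0.0129 and 0.0481). RNA of Slc35e4 had a log2 fold change of 0.56 ± 0.15 (edgeR adjusted p = 0.0209). Leaving out AT2 replicate 1 or 2 ended the calls of Slc35a2 and Slc35a5 (highest edgeR adjusted p = 0.0575 and 0.0565), 6 libraries ended that of Slc35b1 (0.102) and LUAD replicate 1 or 2 or AT2 replicate 2 that of Slc35e4 (0.0716).

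The 2 vitamin carriers called in footprints had opposite signs. Slc19a1, the reduced folate carrier, had footprints of 9.64, 11.1, 18.1 and 18.8 CPM in LUAD, against 2.67, 4.55 and 3.78 CPM in AT2 (log2 fold change 1.94 ± 0.50, edgeR adjusted p = 0.0277). Slc19a2, the thiamine carrier, had footprints of 8.12 to 13.1 CPM in LUAD and 16.9 to 29.9 CPM in AT2 (log2 fold change -1.26 ± 0.36, edgeR adjusted p = 0.0411). The Slc19a1 call was lost without any one of 4 of the 7 libraries (highest edgeR adjusted p = 0.0999) and the Slc19a2 call without any one of 6 (highest edgeR adjusted p = 0.117). RNA of Slc19a1 had an edgeR adjusted p of 0.0563, and of 0.0393 with the replicate number as a block, and RNA of Slc19a2 one of 0.0198, and of 0.0527 with the block and up to 0.0713 without a library.

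Among carriers of other or unknown substrates, 2 of 8 tested fell in footprints and 4 of 9 in RNA, and none rose. Slc15a4, which exports histidine and small peptides from endosomes and lysosomes, had footprints of 17.8 to 29.1 CPM in LUAD and 46.9 to 90.7 CPM in AT2 (log2 fold change -1.49 ± 0.29, edgeR adjusted p = 0.00936). Slc22a23, an orphan, had RNA of 11.4, 11.4, 6.83 and 7.96 CPM in LUAD, against 76.9, 99.0 and 37.6 CPM in AT2. It fell by 2.93 ± 0.36 in RNA and by 1.86 ± 0.52 in footprints on the log2 scale (edgeR adjusted p = 0.000704 and 0.0394), with the footprint call lost without any one of 6 of the 7 libraries (highest edgeR adjusted p = 0.104). RNA of Slc45a4 and Slc49a4 fell by 1.77 ± 0.24 and 1.55 ± 0.34 on the log2 scale (edgeR adjusted p = 0.00101 and 0.00941). Of the 3 Slc-named proteins that are not carriers, the membrane scaffold Slc9a3r1 fell, with log2 fold changes of -0.98 ± 0.20 in footprints and -0.75 ± 0.13 in RNA (edgeR adjusted p = 0.0101 and 0.00359).

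No solute carrier passed the test of footprints per RNA, which asks whether the LUAD to AT2 ratio differs between the assays. By edgeR 0 of 119 were called, beside 0.282% higher and 0.438% lower of 7083 genes, while 8 had a higher and 5 a lower value at an unadjusted p under 0.05, and DESeq2 called 2 higher and 1 lower. Those 3 were Slc38a2 (log2 difference 0.87, DESeq2 adjusted p = 0.00828), Slc39a10 (2.02, DESeq2 adjusted p = 0.0141) and Slc50a1 (-1.37, DESeq2 adjusted p = 0.0465). By edgeR the same differences were 0.90 ± 0.25, 2.01 ± 0.65 and -1.33 ± 0.46 (edgeR adjusted p = 0.122, 0.175 and 0.196). The wider separation of Slc38a2 in footprints than in RNA was called by DESeq2 and not by edgeR over all libraries without an added term. With the library set as a term, an alternative chosen after seeing the data, edgeR called it (edgeR adjusted p = 0.0295). With the replicate number as a block edgeR did not (edgeR adjusted p = 0.0723). Within the 2 library sets the Slc38a2 difference was 0.73 and 0.90. Slc9a2, whose RNA differed more than its footprints, had a difference of -1.84 ± 0.61 (edgeR adjusted p = 0.187).

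**Figure D5:**
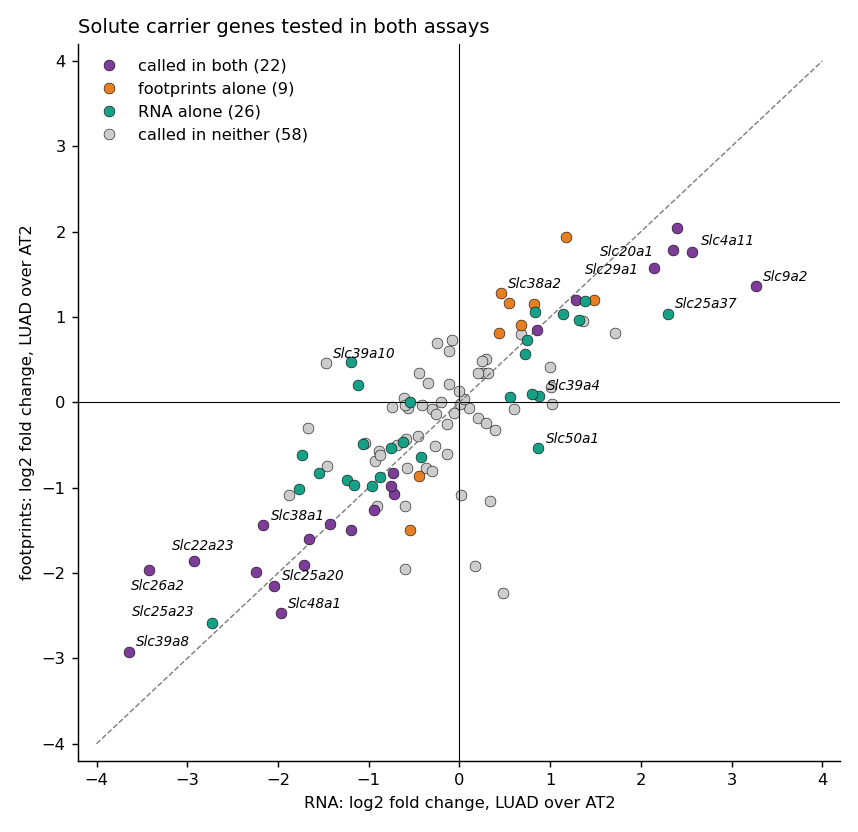
Log2 fold change of LUAD over AT2 in footprints (vertical) against RNA (horizontal) for the 115 solute carrier genes tested in both assays; colour marks the assays in which a gene passed the edgeR test, and the dashed line marks equal change. All 22 genes called in both lie in the lower left or upper right, with Slc39a8 furthest to the lower left.

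Genes of neighbouring pathways were read from lists. Of all genes tested, 9.47% were higher and 11.8% lower in LUAD footprints, and 19% higher and 18% lower in LUAD RNA. The lists below are small, and their counts were not tested against these shares. ABC transporters, unlike solute carriers, use ATP. Of 20 genes with an Abc symbol measured, 7 rose and 4 fell in footprints and 6 rose and 6 fell in RNA. Not all of them are membrane transporters: Abce1, Abcf1, Abcf2 and Abcf3 are not, and Abcf1 was among those that fell in footprints. The furthest were the drug exporter Abcb1a, with a log2 fold change of 3.73 ± 0.31 in footprints (edgeR adjusted p = 0.000376), and the surfactant lipid transporter Abca3, with -1.4 ± 0.26 (edgeR adjusted p = 0.00782). Of 9 zinc and copper handling genes measured, 1 fell and 0 rose in each assay, the copper chaperone Atox1 in footprints (log2 fold change -0.93 ± 0.27, edgeR adjusted p = 0.0432). Of 8 iron handling genes, 3 rose and 1 fell in footprints, and 2 rose and 3 fell in RNA. The metalloreductases Steap1 and Steap2 rose in both (2.46 ± 0.53 and 2.14 ± 0.28 in footprints, edgeR adjusted p = 0.0142 and 0.00215), the iron-regulatory aconitase Aco1 fell in both (-1.99 ± 0.22 in footprints, edgeR adjusted p = 0.000892), and the transferrin receptor Tfrc and the ferritin light chain Ftl1 fell in RNA (-1.41 ± 0.30 and -0.71 ± 0.13, edgeR adjusted p = 0.00877 and 0.00377). Of the amino acid use genes, 3 of 15 tested rose and 0 fell in footprints, and 9 of 16 rose and 0 fell in RNA, among them the proline oxidase Prodh (3.06 ± 0.46 in footprints and 5.26 ± 0.67 in RNA, edgeR adjusted p = 0.00327 and 0.000882). Of 12 glucose and lactate use genes, 0 rose in either assay, while 4 fell in footprints and 6 in RNA, the furthest being the lactate dehydrogenase Ldhb (-5.87 ± 0.65 in footprints, edgeR adjusted p = 0.000968).

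The ORF lists held 246, 117 and 64 ORFs of solute carriers in the 3 LUAD libraries, against 49 and 54 in the 2 AT2 libraries. They made up 1.84%, 1.44% and 1.19% of all listed ORFs in LUAD, against 1.89% and 1.22% in AT2, with 95% exact binomial intervals of 1.62% to 2.08%, 1.19% to 1.72% and 0.919% to 1.52% in LUAD and of 1.4% to 2.49% and 0.918% to 1.59% in AT2, which cover counting error only. The number listed went with the P-sites of a library, that is footprints placed at the codon in the peptidyl site, which were 4460415, 769638 and 612996 in LUAD and 106021 and 262958 in AT2 over all listed ORFs. Of 340 distinct solute carrier ORFs, 243 were in LUAD lists alone, 36 in AT2 lists alone and 61 in both, and 188 were in a single library. The same split over all listed ORFs was not counted. By gene, 70 members were in LUAD lists alone, 11 in AT2 lists alone and 39 in both. Of all 7266 paired genes these numbers were 4113, 554 and 2599. The LUAD lists held 13380, 8122 and 5372 ORFs in all, against 2597 and 4426 in AT2. Of the 340, 214 were of the annotated type.

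For the annotated ORF of Slc38a2, which has 504 codons and runs from 96698730 to 96690127 on the minus strand of chromosome 15 in build mm10, the authors' deposited table gave 156, 94.1 and 101 RPKM, a level of in-frame P-sites per length, in the 3 LUAD lists and 58.7 in the AT2 list that holds it. Upstream ORFs were listed for 3 members. They were 1, 0 and 2 of the 246, 117 and 64 solute carrier ORFs in the LUAD lists, and 0 of the 49 and 54 in the AT2 lists. The share of upstream ORFs over all listed ORFs was not counted, so no tissue difference is read from these few. The authors' deposited table gave Slc7a1 an upstream ORF of 57 codons on chromosome 5 with 16 of 29 P-sites in frame, in LUAD library 3. It gave Slc35c1 an upstream ORF of 45 codons on chromosome 2 with 38 of 75 P-sites in frame, in LUAD library 1. For Slc6a6, the taurine importer, it listed an upstream ORF of 120 codons on chromosome 6 that overlaps the main frame, with 12 of 24 P-sites in frame, in LUAD library 3. No comparison of the lists at equal depth was made.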

How the data were processed

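Footprint (RiboLace) and RNA libraries were quantified with kallisto, per the submitters' processing notes; the deposited files give estimated counts and TPM per transcript, with the transcript index not given in the sources used here. RNA libraries carry the footprint protocol in their labels. The deposited ORF lists (mm10; ORF caller: not given in the sources used here) hold, per the file headers, counts of P-sites per frame, in-frame RPKM and a combined p-value, none above 0.05. Their symbols name the transcripts: 22509 of 118489 transcripts in the tables, in 7266 genes, were paired, so genes with no listed ORF, and transcripts outside the lists, were not measured. A gene translated in one tissue enters through that tissue's lists (554 genes through AT2 lists only, 4113 through LUAD lists only).

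Estimated counts were summed per gene and rounded. edgeR 4.0.16 (R 4.3.3, limma 3.58.1) fitted quasi-likelihood models over all paired genes with TMM scaling, filterByExpr and Benjamini-Hochberg adjustment (threshold 0.05); footprints per RNA were an interaction of tissue and assay over 14 libraries. DESeq2 1.42.0 was an alternative, and Python 3.11.15 with pandas 2.3.3 and matplotlib 3.10.9 made tables and figures. Intervals and floors (3 counts) cover counting error only. On simulated data the fits recovered 71%, 75% and 53% of 4-fold changes and 7%, 27% and 2% of 2-fold changes in footprints, RNA and footprints per RNA (6725, 6900 and 7024 genes), with 5, 7 and 8 unchanged genes called.

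Same-numbered RNA libraries deviated together (r = 0.19, 0.15 and 0.24), but differently numbered libraries of one set had like values (0.16 to 0.24). Same-numbered footprint libraries did not all deviate together (0.37, -0.30 and 0.30). Pairing by number could thus not be told apart from the library set, and the replicate block served as an alternative only. The library sets were read from the data and used in alternatives chosen after seeing them. No pair of replicates agreed within sampling noise. Named genes were a fixed list, plus, per substrate class, assay and direction, up to 3 with the largest change among those called, with a mean of at least 20 counts in the higher group and no overlap; 5 were added after their values were seen, and some genes that the rule names are not reported here, though counts include them. Members and lists were chosen with earlier results of these data known. Alternatives were other scalings, DESeq2, no filter, the replicate block, each library left out, library sets and coding transcripts alone.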

Additional observations from a re-analysis of the deposited data

Results flagged for a closer look

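In 5 of 122 groups of 4 LUAD libraries examined, 1 library stood apart from the other 3; chance gives about 1 in 20. LUAD replicate 1 was that library in 4 of them. Its RNA of Slc26a2 was 10.2 CPM against 6.4 to 6.78 CPM in the others, and its RNA of Slc35a2 was 14.6 CPM against 9.84 to 10.6 CPM. Its RNA of Slc50a1 was 41.9 CPM against 57.7 to 59.0 CPM. In footprints it stood at 111 CPM against 63.2 to 70.8 CPM for Slc39a1. LUAD replicate 3 had 26.0 CPM of Slc39a6 RNA against 33.1 to 34.5 CPM in the others. The RNA calls of Slc26a2, Slc35a2 and Slc50a1 were kept without LUAD replicate 1.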

How the results depend on the processing

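The 31 footprint calls kept their direction under every alternative in which they were fitted, and all 31 passed the test with DESeq2, with DESeq2 size factors, with no filter and with a library set term. Scaling on all transcripts kept 27 of them and 43 of 50 RNA calls: in footprints Slc19a2, Slc22a23, Slc25a39 and Slc35b2 had edgeR adjusted p of 0.0657, 0.0531, 0.0565 and 0.0616, and in RNA Slc27a4, Slc35b1 and Slc39a6 had 0.0765, 0.0696 and 0.115. With the replicate number as a block, 19 remained called (7 of all carriers higher and 12 lower in LUAD, against 14 and 17 without it), and with coding transcripts alone 24 of 30, where the edgeR adjusted p of Slc16a1, Slc19a2, Slc25a39, Slc29a1, Slc35b2 and Slc4a11 was 0.0568, 0.0524, 0.122, 0.0526, 0.0858 and 0.0597. The block ended the footprint calls of Slc12a2, Slc16a1, Slc19a1, Slc19a2, Slc25a24, Slc25a39, Slc27a4, Slc29a1, Slc35b2, Slc35f5, Slc39a11 and Slc9a2. Their edgeR adjusted p then ran from 0.0574 (Slc16a1) to 0.171 (Slc19a1). Of the 50 RNA calls, 41 remained with the block (20 higher and 29 lower in all) and 45 of 49 with coding transcripts alone, where Slc35b1 had an edgeR adjusted p of 0.0996. The library sets moved the counts most: with the set as a term 23 carriers were higher in footprints, in the first set alone 23 were higher and 42 lower, and in RNA 33 were higher in the second set alone. The first footprint set and the second RNA set hold 1 AT2 library each, which was assumed to vary like the LUAD libraries. Among named genes, a sign reversed within a set, with a call in that set or over all libraries, for Slc2a1 footprints (0.98 in the first), Slc3a2 and Slc1a5 RNA (0.43 and 0.74 in the second) and Slc44a4 footprints per RNA (-1.29 in the second). With no such call, signs also turned in the second set for footprints of Slc25a23, Slc1a5 and Slc3a2 (0.65, 0.33 and 0.20), among others, and 1 RNA call outside the named genes turned there too. For footprints per RNA the counts of 0 higher and 0 lower became 2 and 1 with DESeq2, 2 higher with the set as a term, 1 and 4 in the first set and 6 and 5 in the second; the replicate block left both at 0. Leaving out 1 library gave 7 (without LUAD 3) to 19 (without AT2 1) higher and 11 (without LUAD 2, 3 or 4) to 16 lower in footprints, 11 (without AT2 2) to 23 (without AT2 3) higher and 17 (without AT2 1) to 36 (without AT2 3) lower in RNA, and, for footprints per RNA, 0 to 3 higher and 0 to 1 lower, the highest without AT2 1. Summed TPM in place of counts moved the log2 ratio of class shares in RNA to -0.27 for amino acids (-0.03 with counts) and 0.20 for sugars (0.07 with counts). Causes were not tested. AT2 libraries are the shallower ones and limit the precision of low carriers.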
